A study of Mus musculus with 12 samples.

Results

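Gene expression was compared between 2 sets of mouse acute myeloid leukaemia (AML) lines that both express Trib1, 1 on a Ts1Cje background and 1 on a B6 background. The arrays were chosen by their sample titles, 3 for the Ts1Cje Trib1 lines and 3 for the B6 Trib1 lines, from 12 arrays in all. All probe sets other than the manufacturer's controls were eligible, 45037 in number, and 12555 genes were bright enough to be tested. The study's title places the experiment in the development of AML in a mouse model of Down syndrome. The labels call both groups AML cell lines expressing Trib1, and the titles add WT after Trib1 without saying what it stands for. All cells, with and without Trib1, were kept in IMDM medium with 10% foetal bovine serum and 5 ng/ml of interleukin-3 and were left untreated, and 100 ng of total RNA was labelled with biotin. The other 6 arrays held hematopoietic cells of the B6 (wild type) and Ts1Cje backgrounds without Trib1, and apart from sharing the estimate of spread they are used only where stated. How Trib1 was introduced, and from which promoter it was expressed, are not given in the sources used here. The labels also do not say how many lines, mice or cultures stand behind the 3 arrays of a group. The p-values therefore rest on the spread between arrays alone, and that spread may be technical.

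In Ts1Cje mice a stretch of chromosome 16, with genes whose human counterparts lie on chromosome 21, is present in an additional copy joined to chromosome 12. They are a model of Down syndrome, in which myeloid leukaemia is more frequent. TRIB1 is a pseudokinase without ordinary kinase activity that brings the transcription factor C/EBPα to the ubiquitin ligase COP1 for degradation and binds MEK1, and its overexpression in mouse marrow causes AML. C/EBPα and its relatives drive granulocyte maturation, in which primary granules with myeloperoxidase and serine proteases are made first and secondary granules with lactoferrin and similar proteins later.

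Each value below is the intensity the submitters deposited for the brightest probe set of a gene, on a linear scale, and 3 values for a group are its replicates 1, 2 and 3 in that order. Differences are log2(intensity + 15) in Ts1Cje Trib1 minus B6 Trib1, so a negative value is lower in Ts1Cje Trib1, and a gene was called when limma's test gave a Benjamini-Hochberg adjusted p under 0.05. Errors after ± are SDs over n = 3 arrays. The intensities of the 12 arrays had medians of 30.5 to 32, and the 40th percentile that served as the limit for dim signals was at most 23.5. Trib1 itself did not separate the lines: its probe set read 47, 48.7 and 43 on the B6 Trib1 arrays and 41.8, 47.3 and 48.5 on the Ts1Cje Trib1 arrays, a log2 difference of -0.01 (SE 0.063, adjusted p = 0.95). Whether this probe set detects the introduced Trib1 is not given. In the cells without Trib1 it read higher than in the lines, at 76.2 ± 7.23 in B6 and 72 ± 3.5 in Ts1Cje. The lack of a call can therefore not be read as equal levels of the introduced Trib1. As the label of myeloid cells implies, myeloid genes such as Mpo were bright on all 6 line arrays, while the 13 B-cell genes tested summed to at most 464. In RNA from whole cultures, fewer cells of a type and less RNA per cell cannot be told apart.

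Of the 12555 genes, 2697 (21.5%) were called, 1488 higher (11.9%) and 1209 lower (9.63%) in Ts1Cje Trib1. The median difference over all genes tested was 0.00 and the median standard error 0.051. Large differences ran mostly downwards: 68 genes were lower by at least 1 on the log2 scale (0.542%) and 14 higher by that much (0.112%). In 4574 genes (36.4%) the 3 arrays of one line group did not overlap with the 3 of the other, and these included 2654 of the 2697 called genes. Genes were grouped into 48 lists by function or cell type. Counts within a list are to be read beside 11.9% higher and 9.63% lower over all genes. The lists with the lowest medians held granule proteins, monocyte and macrophage genes and eosinophil genes, and those with the highest held trisomic genes and interferon response genes.

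**Figure D1:**
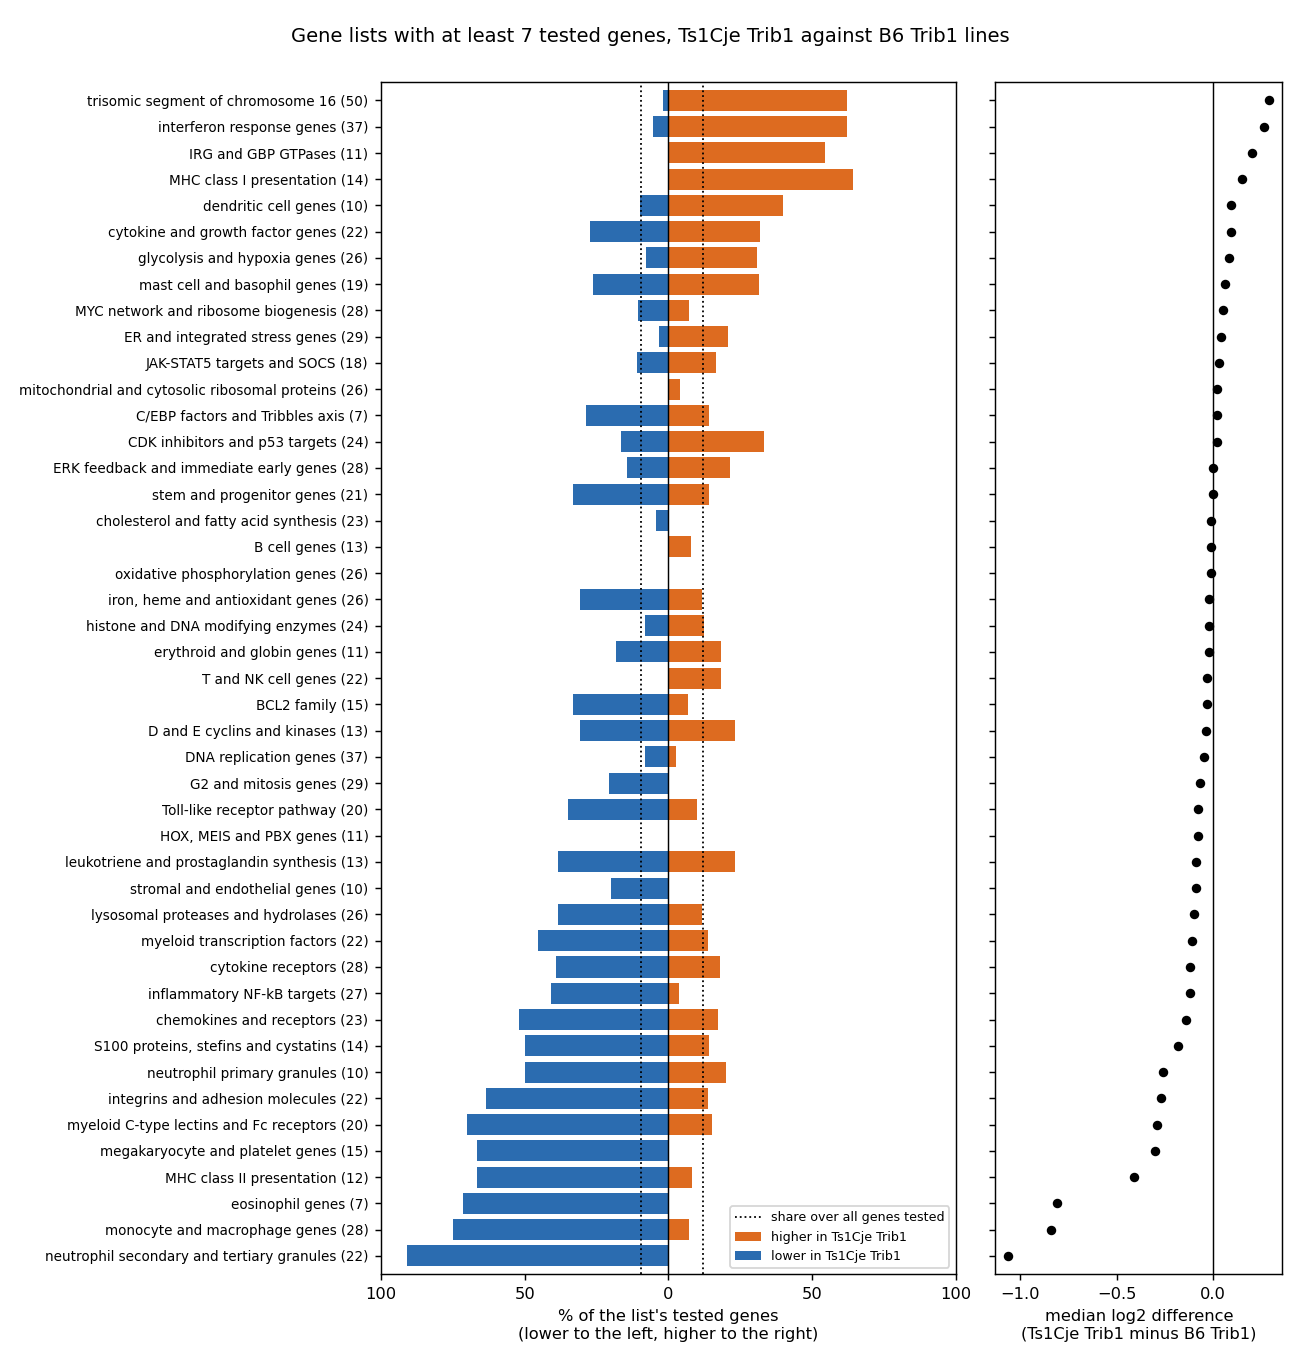
For each gene list with at least 7 tested genes (number in brackets), the left panel plots the percentage of tested genes called higher (right of 0) or lower (left of 0) in the Ts1Cje Trib1 lines, with dotted lines at the shares over all genes, 11.9% and 9.63%, and the right panel plots the median log2 difference. Secondary granule, monocyte and eosinophil genes lie at the bottom with medians of -1.06, -0.84 and -0.81, and the trisomic segment lies at the top with 0.29.

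Neutrophil granule genes were lower in the Ts1Cje Trib1 lines. Of 22 secondary and tertiary granule genes tested, 20 fell, against 9.63% of all genes, and the list's median difference was -1.06. Ltf, which encodes lactoferrin, an iron-binding protein of secondary granules, read 1474, 1461 and 1393 on the B6 Trib1 arrays and 579, 579 and 539.5 on the Ts1Cje Trib1 arrays. The 2 groups did not overlap, and Ltf fell by 1.33 (SE 0.043, adjusted p = 1.44e-10). Mmp8, neutrophil collagenase, read 649.5, 638 and 665 on the B6 Trib1 arrays and 190.4, 193 and 182 on the Ts1Cje Trib1 arrays. Fcnb, ficolin B, a lectin of granules, read 181, 181 and 167 on the B6 Trib1 arrays and 49.6, 49.7 and 42.7 on the Ts1Cje Trib1 arrays. Mmp8 and Fcnb had differences of -1.71 (SE 0.038, adjusted p = 6.89e-12) and -1.62 (SE 0.050, adjusted p = 1.22e-10).

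The fall differed widely within the list. Ngp, neutrophilic granule protein, was the brightest member named here and fell by only 0.48, from 5479.5 ± 98.1 to 3914 ± 91.7 (adjusted p = 2.89e-07). Olfm4, olfactomedin 4, which marks a subset of neutrophils, had a difference of -1.68 (adjusted p = 6.47e-10). Lcn2, lipocalin 2, which binds bacterial siderophores, had a difference of -1.03 (adjusted p = 5.89e-09). Padi4, which citrullinates histones in neutrophils, was not called, with 269, 271 and 279 on the B6 Trib1 arrays and 271, 271 and 265 on the Ts1Cje Trib1 arrays (adjusted p = 0.781); it was picked after its values were seen. The summed intensity of the 22 genes was 22771 to 22843 on the B6 Trib1 arrays and 12374 to 12789 on the Ts1Cje Trib1 arrays.

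The promoters of the genes that fell are shown because C/EBPα is a substrate of TRIB1 and C/EBP factors act at granule genes. The motif TTGCNNAA, a C/EBP core, was searched on both strands from 250 bases before to 50 bases after the start site, in RefSeq promoters of build GRCm38.p6. It was found in 7 of the 17 secondary granule genes that fell and had a promoter in the table (41.2%), and in 10.8% of all 32851 promoters. Capitals mark the first match on the strand of the gene, where a match on the opposite strand reads TTNNGCAA.
Ltf, chr9:111019187-111019254, plus strand: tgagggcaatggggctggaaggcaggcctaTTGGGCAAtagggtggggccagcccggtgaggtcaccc
Mmp8, chr9:7558380-7558428, plus strand: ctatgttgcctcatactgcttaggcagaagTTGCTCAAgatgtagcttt
Lcn2, chr2:32387918-32387985, minus strand: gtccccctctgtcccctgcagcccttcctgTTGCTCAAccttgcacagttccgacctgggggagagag
Ngp, chr9:110419640-110419707, plus strand: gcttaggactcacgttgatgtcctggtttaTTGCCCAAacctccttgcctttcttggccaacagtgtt
Fcnb, chr2:28085076-28085128, minus strand: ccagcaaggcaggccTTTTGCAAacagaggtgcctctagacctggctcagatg
A further match in the Fcnb and Ngp promoters lies outside the stretch shown. Among all 18 tested genes of the list with a promoter, 7 held the motif (38.9%). Of all 967 genes lower in Ts1Cje Trib1 with a promoter, 11.9% held it, and of all 10083 genes tested with a promoter, 10.2%. A match describes the letters in this window only.

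Primary granule genes moved in both directions. Of 10 tested, 5 fell (50%) and 2 rose (20%), against 9.63% and 11.9% of all genes, and their median was -0.26. Mpo, myeloperoxidase, the main enzyme of primary granules, read 2974, 3017 and 2899.7 on the B6 Trib1 arrays and 1131, 1089 and 1126 on the Ts1Cje Trib1 arrays, a difference of -1.40 (SE 0.035, adjusted p = 2.13e-11). Prtn3, proteinase 3, read 2481, 2532 and 2533 on the B6 Trib1 arrays and 1196, 1182 and 1266 on the Ts1Cje Trib1 arrays, a difference of -1.04 (SE 0.036, adjusted p = 2.92e-10). Elane, neutrophil elastase, read 952, 890.4 and 903 on the B6 Trib1 arrays and 267, 273 and 230.5 on the Ts1Cje Trib1 arrays and fell by 1.78 (SE 0.065, adjusted p = 3.95e-10). In all 3 the groups were far apart beside the spread within a group. Ctsg, cathepsin G, a serine protease of the same granules, was not called at 2530.1, 2573 and 2449 on the B6 Trib1 arrays and 2292, 2378 and 2456 on the Ts1Cje Trib1 arrays (adjusted p = 0.224), and the groups overlapped. Cst7, cystatin F, an inhibitor of cysteine proteases, rose by 0.32 (adjusted p = 4.68e-05). Ctsc, cathepsin C, which activates these proteases, was not called by its brightest probe set (adjusted p = 0.0987), while 2 dimmer probe sets were lower, the lowest at -0.86; Ctsg and Ctsc were picked after their values were seen.

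Of the 5 primary granule genes that fell and had a promoter in the table, 3 held GAGGAAGT, a PU.1 motif (60%), which 3.2% of all promoters held on either strand. Counted by gene, 6.41% of all 967 genes lower in Ts1Cje Trib1 with a promoter held it, and 3.81% of all 10083 tested. Among all 9 tested genes of the list with a promoter, 4 held it (44.4%), the fourth being Ctsc, which was not called. Those 3 stretches are shown because their genes had the largest falls of the list, and Elane and Prtn3 are close neighbours on chromosome 10. Capitals mark the motif.
Elane, chr10:79886197-79886264, plus strand: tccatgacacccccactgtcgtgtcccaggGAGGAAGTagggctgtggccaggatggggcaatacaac
Prtn3, chr10:79879542-79879609, plus strand: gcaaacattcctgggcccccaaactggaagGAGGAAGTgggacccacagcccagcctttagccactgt
Mpo, chr11:87793534-87793597, plus strand: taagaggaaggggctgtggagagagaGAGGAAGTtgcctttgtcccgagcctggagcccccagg

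**Figure D2:**
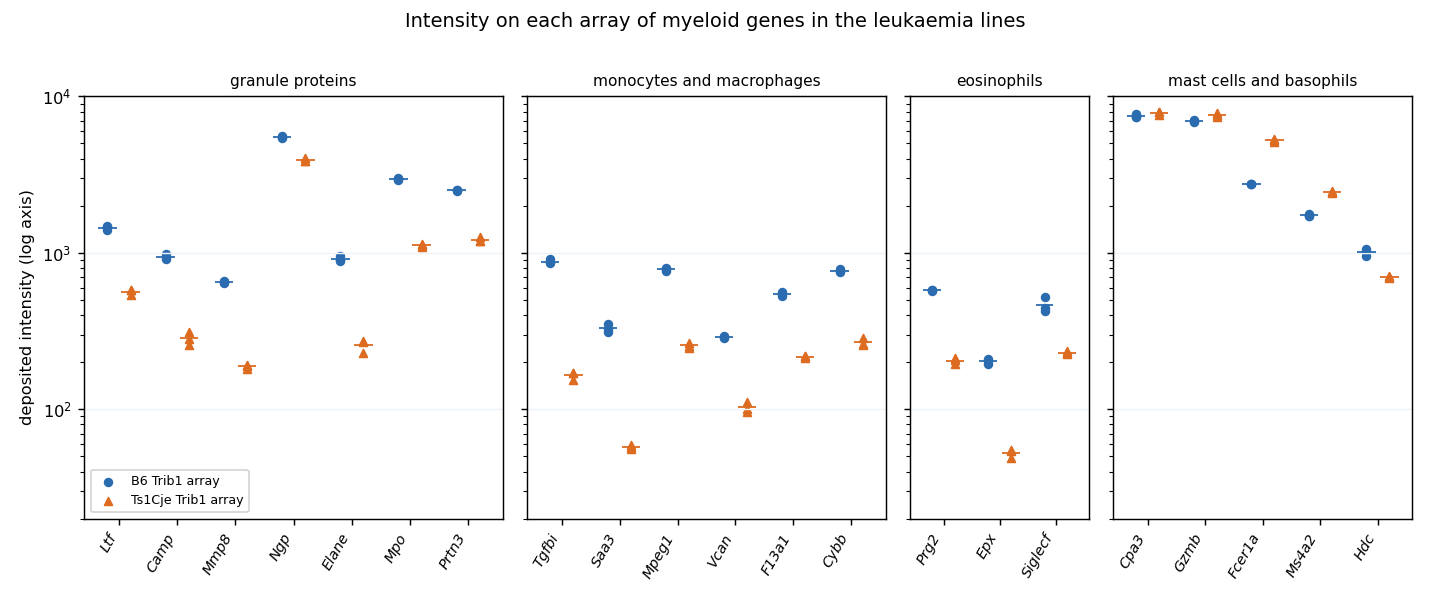
Deposited intensity (log axis) of granule, monocyte and macrophage, eosinophil, and mast cell and basophil genes on each of the 3 B6 Trib1 arrays (circles) and 3 Ts1Cje Trib1 arrays (triangles), with horizontal bars at the group means. Ltf lies at 1443 ± 43.4 in B6 Trib1 and 566 ± 22.8 in Ts1Cje Trib1, Fcer1a lies higher in Ts1Cje Trib1, and Cpa3 and Gzmb, which were not called, lie side by side.

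Most genes of monocytes and macrophages fell. Of 28 tested, 21 were lower and 2 higher, with a median of -0.84. Tgfbi, a matrix protein secreted by monocytes, read 907, 857 and 874 on the B6 Trib1 arrays and 155, 169.6 and 170.5 on the Ts1Cje Trib1 arrays, a difference of -2.31 (SE 0.043, adjusted p = 1.13e-12). Vcan, versican, a proteoglycan of classical monocytes, fell by 1.36 (adjusted p = 2.92e-10), from 289 ± 4.97 to 103 ± 7.96. F13a1, a subunit of clotting factor XIII, fell by 1.27 (adjusted p = 2.92e-10), from 544 ± 18.1 to 217 ± 3.08. Csf1r, the receptor for M-CSF, read 225, 225 and 211 on the B6 Trib1 arrays and 76.1, 112 and 63 on the Ts1Cje Trib1 arrays, and the Ts1Cje Trib1 arrays stayed below the B6 Trib1 arrays although they varied more among themselves. Adgre1, which encodes the macrophage antigen F4/80, had a difference of -1.06 (SE 0.073, adjusted p = 2.18e-07). Lgals3, galectin-3, among the brighter members, fell by 0.30 (adjusted p = 4.51e-05). The 2 members that rose were Cx3cr1, the fractalkine receptor, from 92.6 ± 13.2 to 112 ± 0.763, and C1qa, from 28.1 ± 2.51 to 38.7 ± 0.78, picked after their values were seen. The call for Cx3cr1 was lost without B6 Trib1 replicate 1 or 3 and without any single Ts1Cje Trib1 array, among other settings (0.18 to 0.25). C1qb, which encodes another chain of complement C1q, moved the other way from C1qa, to -0.79 (adjusted p = 9.53e-07). Ccr2, the chemokine receptor of classical monocytes, was not called at 1265, 1308 and 1407 on the B6 Trib1 arrays and 1206, 1155 and 1246 on the Ts1Cje Trib1 arrays (adjusted p = 0.22). Adgre1, C1qb and Ccr2 were picked in the same way.

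Saa3 and Hp, genes of the acute-phase response that myeloid cells also express, were among the largest falls of the whole comparison, and stand in the monocyte and the secondary granule list. Saa3, serum amyloid A3, read 327, 311 and 349 on the B6 Trib1 arrays and 56, 59.5 and 57.6 on the Ts1Cje Trib1 arrays. Hp, haptoglobin, which binds free haemoglobin, read 702, 691 and 685 on the B6 Trib1 arrays and 171, 156 and 196 on the Ts1Cje Trib1 arrays. The largest falls were taken only from called genes without overlap between groups. Saa3 and Hp had differences of -2.24 (SE 0.045, adjusted p = 2.57e-12) and -1.91 (SE 0.058, adjusted p = 1.03e-10). Tfec, a transcription factor of the MITF family found in macrophages, read 447, 446 and 440.3 on the B6 Trib1 arrays and 99.2, 127 and 117 on the Ts1Cje Trib1 arrays, a difference of -1.84 (adjusted p = 2.92e-10). Other large falls were Sgms2, a sphingomyelin synthase, at -1.70, Fabp4, a fatty acid binding protein of macrophages and fat cells, at -1.64, and Lpl, lipoprotein lipase, at -1.52.

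Eosinophil genes were lower too: 5 of 7 tested fell, with a median of -0.81, and the summed intensity went from between 1421 and 1528 in B6 Trib1 to between 617 and 621 in Ts1Cje Trib1. Prg2, major basic protein of eosinophil granules, read 583, 576 and 571 on the B6 Trib1 arrays and 194, 206 and 214 on the Ts1Cje Trib1 arrays, a difference of -1.43 (SE 0.039, adjusted p = 3.58e-11). Epx, eosinophil peroxidase, read 205, 196 and 209.6 on the B6 Trib1 arrays and 54.5, 55.3 and 48.6 on the Ts1Cje Trib1 arrays, a difference of -1.69 (SE 0.082, adjusted p = 7.57e-09). Siglecf, a sialic acid receptor of eosinophils, read 428, 446 and 522 on the B6 Trib1 arrays and 235, 230.4 and 224 on the Ts1Cje Trib1 arrays, with no overlap and a difference of -0.97 (adjusted p = 3.81e-06).

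Mast cell and basophil genes did not move one way. Of 19 tested, 6 rose and 5 fell, and the median was 0.06. Fcer1a, the ligand-binding chain of the high-affinity IgE receptor, read 2740.0, 2766 and 2758 on the B6 Trib1 arrays and 5333, 5229.6 and 5129 on the Ts1Cje Trib1 arrays. Its Ts1Cje Trib1 arrays were all far above its B6 Trib1 arrays, and the difference was 0.92 (SE 0.055, adjusted p = 5.14e-08). Ms4a2, the beta chain of the same receptor, rose from 1736 ± 31.9 to 2448 ± 32.4, by 0.49 (adjusted p = 2.07e-07). Cd200r3, an activating receptor of mast cells and basophils, rose by 0.60 (adjusted p = 0.00103).

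Several other genes of these cells, enzymes among them, were not called or fell. The receptor genes named above are only part of the 6 that rose. Cpa3, mast cell carboxypeptidase, was bright in both groups, with 7662, 7387 and 7363 on the B6 Trib1 arrays and 7887, 7899 and 7652 on the Ts1Cje Trib1 arrays, and was not called (adjusted p = 0.417). Gzmb, granzyme B, which cultured mast cells also make, was not called either, with a difference of 0.13 (adjusted p = 0.141). Hdc, histidine decarboxylase, which makes histamine, read 955, 1011 and 1055 on the B6 Trib1 arrays and 711, 703 and 686 on the Ts1Cje Trib1 arrays and fell by 0.52 (adjusted p = 2.92e-06). Hgf, hepatocyte growth factor, fell by 0.27 (adjusted p = 0.00394). Mcpt8, a protease of basophils, fell by 0.19, from 4410.4 ± 65.5 to 3859.6 ± 109.8, and Kit, the stem cell factor receptor, fell by 0.22, from 802 ± 34.5 to 688 ± 51.1; both were picked after their values were seen.

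Markers of other blood lineages were checked because the cultures could hold such cells. Megakaryocyte and platelet genes fell in 10 of 15 tested, with a median of -0.30. Treml1, a receptor of platelet granules, had a difference of -1.10 (adjusted p = 2.55e-06), and Vwf, von Willebrand factor, one of -0.60 (adjusted p = 1.11e-05), while Pf4, platelet factor 4, was not called (adjusted p = 0.0594). Of 13 B-cell genes, 1 was called, Vpreb1, a surrogate light chain of early B cells, which was dim, at 27.3 ± 3.84 to 34.6 ± 2.5, and lost its call without B6 Trib1 replicate 1 or 3 or Ts1Cje Trib1 replicate 2 (0.20). The summed intensity of the B-cell list was 421 to 464 in B6 Trib1 and 439 to 462 in Ts1Cje Trib1. Of 22 T and NK cell genes, 4 rose, with a median of -0.03. They were Gzma (0.64) and Gzmc (0.70), granzymes, and Gata3 (0.52) and Eomes (0.26), transcription factors. Among 11 erythroid genes 2 rose and 2 fell. Hbb-y, an embryonic globin chain, read 86.4, 81.6 and 98.9 on the B6 Trib1 arrays and 278, 286 and 281 on the Ts1Cje Trib1 arrays, a difference of 1.52 (SE 0.058, adjusted p = 6.47e-10). Dendritic cell genes were called higher in 4 of 10 (2 without B6 Trib1 replicate 2) and lower in 1, and stromal genes lower in 2 of 10. The part of such cells in the results was not tested.

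Among myeloid transcription factors, 10 of 22 tested fell, 3 rose and the median was -0.11. Irf8, which directs monocyte and dendritic cell fate, read 95.3, 80.3 and 100.2 on the B6 Trib1 arrays and 34.7, 31.3 and 31.9 on the Ts1Cje Trib1 arrays, a difference of -1.16 (SE 0.069, adjusted p = 4.79e-08). Klf4, another monocyte factor, fell (adjusted p = 1.36e-06) from 53.2, 47.8 and 72.6 on the B6 Trib1 arrays to 20.6, 17.9 and 18.1 on the Ts1Cje Trib1 arrays. The latter are below the dim-signal limit, so the size of its fall is not given. Spi1, which encodes PU.1, read 439, 452 and 459 on the B6 Trib1 arrays and 320.2, 308 and 285 on the Ts1Cje Trib1 arrays and fell by 0.54 (adjusted p = 5.36e-06). Gfi1, a repressor needed for neutrophils, had a difference of -0.62 (adjusted p = 1.97e-05). Those that rose included Tcf4, a dendritic cell factor, by 0.43, and Batf, an AP-1 family member, by 0.27 (adjusted p = 0.00926 and 0.000352).

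C/EBP and Tribbles genes split by member. Of 7 tested, 2 fell and 1 rose. Cebpd read 292, 289.9 and 305 on the B6 Trib1 arrays and 103, 110.3 and 104 on the Ts1Cje Trib1 arrays, a difference of -1.36 (SE 0.043, adjusted p = 1.24e-10), and Cebpb had a difference of -0.58 (adjusted p = 1.09e-07). Both encode C/EBP factors that act in macrophages and late granulocytes. Cebpa, whose protein TRIB1 targets, read 971, 922 and 897 on the B6 Trib1 arrays and 1105, 1074 and 921 on the Ts1Cje Trib1 arrays, with overlapping groups, and was not called (adjusted p = 0.114), although it was without Ts1Cje Trib1 replicate 3 (0.23). This is its transcript and not the protein. Trib3, a relative of Trib1 that rises in cell stress, rose by 0.45 (adjusted p = 6.21e-06), while Trib2 was not called (adjusted p = 0.857). The Trib2 means, 20.9 in B6 Trib1 and 21.5 in Ts1Cje Trib1, were below the dim-signal limit, where a difference could be missed.

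Of 21 stem and progenitor genes tested, 7 were lower (33.3%, against 9.63% of all genes), and the median was 0.00. The 3 that were higher (5 without Ts1Cje Trib1 replicate 3) made up 14.3%, near the 11.9% of all genes. Prom1, prominin-1, read 154, 154 and 174 on the B6 Trib1 arrays and 45.6, 50.6 and 55.4 on the Ts1Cje Trib1 arrays, a difference of -1.42 (SE 0.059, adjusted p = 1.53e-09). Lmo2, a bridging protein of stem cell transcription complexes, had a difference of -0.76 (adjusted p = 3.27e-09). Ikzf2 and Sox4, transcription factors, rose by 0.26 and 0.27 (adjusted p = 0.000783 and 0.000661). Of the 11 HOX, MEIS and PBX genes tested, which many AMLs express at high levels, limma called 0, with 2 at an unadjusted p under 0.05. Meis1, a partner of HOX proteins, came nearest, with a difference of -0.14 (adjusted p = 0.0516).

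Many receptors and effectors that monocytes and neutrophils use to sense and kill microbes fell too. C-type lectin and Fc receptor genes were lower in 14 of 20 and higher in 3, with a median of -0.29. Clec5a, a lectin that signals through DAP12, had a difference of -1.43 (adjusted p = 1.36e-09), and Clec4a2, an inhibitory lectin, one of -1.25 (adjusted p = 1.68e-08). Fcgr1, the high-affinity IgG receptor, had a difference of -1.38 (adjusted p = 1.51e-09). Of 20 Toll-like receptor pathway genes, 7 fell and 2 rose. Tlr2, the receptor for bacterial lipoproteins, read 303, 284 and 320.5 on the B6 Trib1 arrays and 142, 163 and 149 on the Ts1Cje Trib1 arrays, a difference of -0.94 (SE 0.067, adjusted p = 3.23e-07), and Cd14, the co-receptor for lipopolysaccharide, one of -1.43 (adjusted p = 1.01e-09). Unc93b1, which carries the nucleic acid receptors to endosomes, had a difference of -0.83 (adjusted p = 2.07e-07). The 2 that rose were Tlr4, the lipopolysaccharide receptor, by 0.16, and its partner Ly96, or MD-2, by 0.29, picked after their values were seen. The call for Tlr4 was lost without B6 Trib1 replicate 1 or 2 or Ts1Cje Trib1 replicate 1 or 3 (0.11 to 0.17), among other settings, and that for Ly96 without replicate 2 of either group (0.24 and 0.27).

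Of 5 NADPH oxidase genes, which make superoxide for killing, 3 fell. Cybb, the catalytic subunit, read 784, 767 and 749.5 on the B6 Trib1 arrays and 261, 256 and 286 on the Ts1Cje Trib1 arrays, a difference of -1.47 (SE 0.043, adjusted p = 7.4e-11), while Cyba, its membrane partner, fell by only 0.32 (adjusted p = 7.29e-05). Lysosomal genes were lower in 10 of 26 and higher in 3. Ctsh, cathepsin H, read 267, 279 and 258 on the B6 Trib1 arrays and 121, 119 and 127 on the Ts1Cje Trib1 arrays, a difference of -1.04 (adjusted p = 4.57e-10). Psap, prosaposin, an activator of lipid breakdown, fell from 2106 ± 70.9 to 1147 ± 13.9, by 0.87 (adjusted p = 1.34e-09). Ctsd, cathepsin D, was not called, at 3149 ± 42.4 to 3135 ± 89 (adjusted p = 0.938), and was picked after its values were seen. Integrin and adhesion genes were lower in 14 of 22 and higher in 3 (5 without Ts1Cje Trib1 replicate 3), with a median of -0.27. Itgam, the CD11b chain of complement receptor 3, had a difference of -1.08 (adjusted p = 4.34e-09), and Cd44, the hyaluronan receptor, one of -0.86 (adjusted p = 8.35e-08). Of 14 S100 and stefin genes, 7 fell and 2 rose. S100a8, a calcium-binding alarmin of neutrophils, read 5995, 5899 and 6184 on the B6 Trib1 arrays and 4329.7, 3884 and 3873 on the Ts1Cje Trib1 arrays, a difference of -0.58 (adjusted p = 5.67e-07).

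Chemokines and cytokines moved in both directions. Of 23 chemokine genes and chemoattractant receptors, 12 fell (52.2%) and 4 rose (17.4%), against 9.63% and 11.9% of all genes. Ccl2, which attracts monocytes, read 378, 402 and 399 on the B6 Trib1 arrays and 150.4, 148 and 115 on the Ts1Cje Trib1 arrays, a difference of -1.42 (SE 0.073, adjusted p = 1.22e-08). Ccl7, a close relative, fell by 0.75, and Fpr2, a formyl peptide receptor, by 0.93 (adjusted p = 2.56e-08 and 7.61e-09). Among those that rose were Ccl24, an eosinophil attractant, by 0.55, and Ccl22, a ligand of CCR4, by 0.48 (adjusted p = 3.79e-06 and 1.58e-05), and the number that rose was 2 without Ts1Cje Trib1 replicate 2. Of 28 cytokine receptor genes, 11 fell and 5 rose. Il1r1, the signalling receptor for interleukin-1, fell by 0.68, and Il1r2, its decoy, by 0.59 (adjusted p = 3.42e-06 and 1.28e-07). Il3ra, the specific chain of the receptor for the interleukin-3 in the medium, was not called, at 123 ± 5.78 to 145 ± 16.7 (adjusted p = 0.0595), although it was without Ts1Cje Trib1 replicate 2 and with median centring (0.29 and 0.22), and was picked after its values were seen. Nor was Csf2rb, the shared signalling chain of that receptor, called by its brightest probe set, at 4476 ± 48.7 to 4659 ± 266 (adjusted p = 0.425). Of its 3 probe sets 1 was called higher, and the highest difference among them was 0.34. Of 22 cytokine genes, 7 rose and 6 fell. Tnfsf10, which encodes TRAIL, rose by 0.45, and Il18 fell by 0.69 (adjusted p = 0.000362 and 4.41e-07).

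Interferon response genes were higher in the Ts1Cje Trib1 lines. Of 37 tested, 23 rose, against 11.9% of all genes, and 2 fell, with a median of 0.26. The summed intensity of the list was 15525 to 15588 on the B6 Trib1 arrays and 19068 to 19758 on the Ts1Cje Trib1 arrays. Usp18, the protease that removes ISG15 from proteins and dampens the receptor, read 554, 526 and 514 on the B6 Trib1 arrays and 969, 942 and 925 on the Ts1Cje Trib1 arrays. Rtp4, which binds viral RNA, read 468, 477 and 514 on the B6 Trib1 arrays and 749, 815 and 835 on the Ts1Cje Trib1 arrays, and Ifi27, a mitochondrial protein, read 617, 635 and 627 on the B6 Trib1 arrays and 936, 953 and 942 on the Ts1Cje Trib1 arrays. None of the 3 genes overlapped between groups, and their differences were 0.81, 0.70 and 0.58 (adjusted p = 2.85e-07, 1.12e-05 and 9.58e-08). Irf7 and Irf9, the transcription factors of the response, rose by 0.30 and 0.39 (adjusted p = 0.0025 and 0.000955), and Rsad2, viperin, by 0.55 (adjusted p = 0.000116). Irf1, a factor induced mainly by interferon gamma, fell by 0.20 and Ifit2, an RNA-binding protein, by 0.28 (adjusted p = 0.0156 and 0.0192). The call for Irf1 was lost without B6 Trib1 replicate 1 or Ts1Cje Trib1 replicate 1 or 2 (-0.19 to -0.15), and that for Ifit2 without replicate 1 or 3 of B6 Trib1 or 2 or 3 of Ts1Cje Trib1 (-0.27 to -0.24). Mx1, an antiviral GTPase, was not called, at 31 ± 3.98 to 38.3 ± 4.66 (adjusted p = 0.0613), and neither was Eif2ak2, the RNA sensor PKR, at 105 ± 6.77 to 129 ± 2.57 (adjusted p = 0.0524). Mx1 was called without B6 Trib1 replicate 3 or Ts1Cje Trib1 replicate 3 (0.27 and 0.29). These 7 genes, from Irf7 on, were picked after their values were seen.

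The immunity-related GTPases (IRG) and guanylate-binding proteins (GBP), which attack vacuoles that hold microbes, were higher in 6 of 11 tested, with a median of 0.20. Tgtp1 read 970.4, 966 and 959 on the B6 Trib1 arrays and 1608, 1591 and 1636 on the Ts1Cje Trib1 arrays, a difference of 0.73 (SE 0.031, adjusted p = 1.98e-09). Irgm1, which regulates the other IRG proteins, read 329, 312 and 316 on the B6 Trib1 arrays and 425, 445 and 434 on the Ts1Cje Trib1 arrays, a difference of 0.43 (SE 0.041, adjusted p = 5.28e-06). In both genes the groups were clearly apart. The other 4 that rose, Ifi47, Irgm2, Igtp and Gbp7, did so by 0.16 to 0.22. Iigp1, a GTPase of the same family, was not called (adjusted p = 0.483) and was picked after its values were seen. Its means, 18.9 in B6 Trib1 and 19.9 in Ts1Cje Trib1, were below the dim-signal limit, where a difference could be missed.

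The core of the interferon-stimulated response element, GAAA followed after any 2 bases by GAAA again, was searched on both strands of the same promoter windows, since these genes moved together. It was found in 5 of the 6 IRG and GBP genes that rose (83.3%), in 5 of the 16 interferon response genes that rose and had a promoter in the table (31.2%), and in 3.44% of all promoters. Among all tested genes with a promoter it was found in 7 of 8 IRG and GBP genes (87.5%) and 9 of 25 interferon response genes (36%). Counted by gene over all lists and beyond, 5.52% of the 1214 genes higher in Ts1Cje Trib1 with a promoter held it, and 3.61% of the 10083 tested. Capitals mark the first match, and a match on the opposite strand reads as TTTC, 2 bases and TTTC.
Irgm1, chr11:48871421-48871480, minus strand: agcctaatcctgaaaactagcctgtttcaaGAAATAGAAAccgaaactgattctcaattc
Igtp, chr11:58199492-58199555, plus strand: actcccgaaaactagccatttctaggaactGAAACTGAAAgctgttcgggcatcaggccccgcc
Tgtp1, chr11:48992284-48992353, minus strand: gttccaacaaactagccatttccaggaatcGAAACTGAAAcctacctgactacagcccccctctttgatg
Irgm2, chr11:58214883-58214952, plus strand: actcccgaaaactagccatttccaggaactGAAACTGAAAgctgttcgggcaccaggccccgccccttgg
Gbp7, chr3:142530253-142530322, plus strand: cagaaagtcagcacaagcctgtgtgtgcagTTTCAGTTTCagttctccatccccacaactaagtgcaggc
Rsad2, chr12:26456533-26456602, minus strand: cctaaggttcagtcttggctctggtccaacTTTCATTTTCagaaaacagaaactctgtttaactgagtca
Ifit1, chr19:34640755-34640824, plus strand: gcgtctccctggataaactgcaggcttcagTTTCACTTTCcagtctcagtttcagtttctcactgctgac
Irgm1 holds an overlapping further match and Ifit1 a further match that are not in capitals. Genes that were not called, such as Ifit3 and Stat2, held the motif as well. Rsad2, Ifit1, Ifit3 and Stat2 were picked for their matches.

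**Figure D3:**
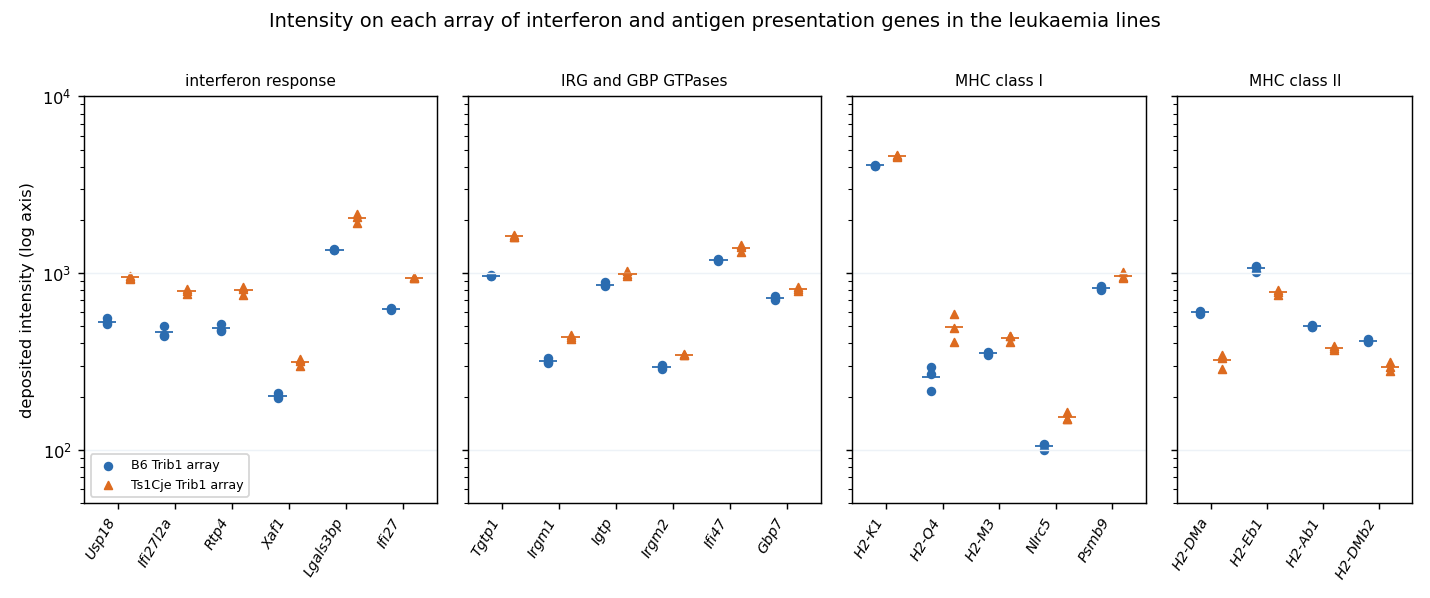
Deposited intensity (log axis) of interferon response, IRG and GBP, MHC class I and MHC class II genes on each of the 3 B6 Trib1 arrays (circles) and 3 Ts1Cje Trib1 arrays (triangles), with horizontal bars at the group means. Tgtp1 lies at 965 ± 5.6 in B6 Trib1 and 1612 ± 22.9 in Ts1Cje Trib1, and the 4 MHC class II genes shown lie lower in Ts1Cje Trib1.

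Antigen presentation genes moved in opposite directions by class. MHC class I and its processing genes were higher in 9 of 14 tested, with a median of 0.15. H2-K1, a class I heavy chain, was bright and rose by 0.18, from 4068 ± 38.8 to 4602 ± 63.4 (adjusted p = 0.00123). Nlrc5, the class I transactivator, rose by 0.50 (adjusted p = 2.13e-06), and Psmb9, an immunoproteasome subunit, by 0.23 (adjusted p = 0.00121). H2-Q4 had a larger difference, 0.89, but class I genes are near copies of each other and their probe sets may share signal. MHC class II genes were lower in 8 of 12 tested and higher in 1, with a median of -0.41. H2-DMa, which loads peptides onto class II, read 587, 599 and 610.3 on the B6 Trib1 arrays and 332, 342 and 288 on the Ts1Cje Trib1 arrays, a difference of -0.88 (SE 0.059, adjusted p = 1.81e-07). H2-Ab1 and H2-Eb1, class II chains, fell by 0.39 and 0.45 (adjusted p = 6.58e-05 and 4.37e-06). H2-Oa, a subunit of an inhibitor of peptide loading, rose by 0.20 (adjusted p = 0.0052), and Ciita, the class II transactivator, was not called at -0.23 (adjusted p = 0.084) but was without B6 Trib1 replicate 3 (-0.29). The Ts1Cje Trib1 mean of Ciita, 22.6, was below the dim-signal limit, so these sizes are uncertain, and 1 of its 2 probe sets was called lower. H2-Oa and Ciita were picked after their values were seen.

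Signalling lists held both rises and falls. In the ERK pathway and immediate early list, 6 of 28 rose, 4 fell and the median was 0.00. Spred1, which restrains RAS signalling, rose by 0.36 (adjusted p = 0.000609). Dusp6, the ERK phosphatase, was not called, at 813 ± 13.1 to 770.2 ± 26.1 (adjusted p = 0.181), and was picked after its values were seen. In the JAK-STAT5 list 3 of 18 rose (16.7%) and 2 fell (11.1%), shares near those over all genes, 11.9% and 9.63%. Socs1 rose by 0.39 and Socs3 fell by 0.32, both feedback inhibitors of cytokine signalling (adjusted p = 0.000903 and 0.000328). NF-kB pathway and target genes were lower in 11 of 27 and higher in 1, with a median of -0.12. Nfkbia, the inhibitor that NF-kB itself induces, fell by 0.56, and Acod1, which makes itaconate, by 0.83 (adjusted p = 1.89e-06 and 1.51e-09). In the BCL2 family, 5 of 15 fell and 1 rose, Bcl2 itself, by 0.38 (adjusted p = 8.47e-05). The number that fell was 3 without any single B6 Trib1 array or Ts1Cje Trib1 replicate 3 and 1 without Ts1Cje Trib1 replicate 2.

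Proliferation genes shifted little in size. Of 37 DNA replication genes, 3 fell and 1 rose (median -0.05), and of 29 mitotic genes 6 fell (median -0.07). Mki67, the proliferation antigen, fell by 0.22, from 2236 ± 21.1 to 1916 ± 44.5 (adjusted p = 0.000345). Of 24 cell cycle inhibitor and p53 target genes, 8 rose and 4 fell, or 2 without B6 Trib1 replicate 3 or Ts1Cje Trib1 replicate 2. Rprm, reprimo, a p53 target linked to arrest in G2, read 239, 214 and 257 on the B6 Trib1 arrays and 869.8, 646 and 834 on the Ts1Cje Trib1 arrays, a difference of 1.66 (SE 0.106, adjusted p = 1.08e-07). Cdkn2a and Cdkn2b, neighbouring inhibitors of CDK4 and CDK6 or of MDM2, rose by 0.34 and 0.41 (adjusted p = 0.000329 and 0.000313), while Btg2, an antiproliferative p53 target, fell by 0.55 (adjusted p = 5.38e-07).

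Most metabolic lists had medians near that of all genes. Of 26 oxidative phosphorylation genes limma called 0, with 3 at an unadjusted p under 0.05 and a median of -0.01. This list left out Atp5o, an ATP synthase subunit encoded in the trisomic segment, which rose by 0.32 (adjusted p = 4.06e-05). Of 23 cholesterol synthesis genes 1 fell. Glycolysis and hypoxia genes were higher in 8 of 26 and lower in 2, with a median of 0.08. Iron and antioxidant genes were lower in 8 of 26 and higher in 3 (1 without B6 Trib1 replicate 2). Those lower included Slc40a1, the iron exporter ferroportin, at -0.95, and Mgst1, a microsomal glutathione transferase, at -1.33 (adjusted p = 2.32e-08 and 6.66e-10). Leukotriene and prostaglandin genes were mixed, with 3 of 13 higher and 5 lower. Alox5, 5-lipoxygenase, and Ltc4s, leukotriene C4 synthase, rose by 0.24 and 0.28 (adjusted p = 0.000472 and 0.00145), and Cyp4f18, which inactivates leukotriene B4, fell by 0.55 (adjusted p = 6.41e-05). Of 26 ribosomal protein genes, 1 was called, Mrps6, a mitochondrial subunit encoded in the trisomic segment.

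Genes of the extra chromosome 16 segment were higher in the Ts1Cje Trib1 lines, though not all and not equally. Of 50 segment genes tested, 31 rose and 1 fell, against 11.9% and 9.63% of all genes. Without Sod1, which lies at the edge of the segment, 30 of 49 rose. The ratio of mean intensities of these 49 had a median of 1.25 and quartiles of 1.04 and 1.40. An extra copy would give 1.5 if RNA followed copy number, and 7 genes reached it, among them Fam3b, whose ratio is uncertain because it was dim in B6 Trib1. Among the 29 genes whose mean intensity over the lines was at least 100, 25 rose and the median ratio was 1.36, while among the 20 dimmer genes 5 rose and the median ratio was 1.04. The list left out 7 other tested genes that lie between Sod1 and the end of the segment, of which 3 rose (42.9%). They included Mx1, described above, and Itgb2l, an integrin-like granule gene, which fell by 0.53 (adjusted p = 1.45e-06) with the secondary granule list; Itgb2l was picked after its values were seen.

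Along the chromosome, the members with the largest ratios were spread over the segment. Erg, a transcription factor of stem cells and megakaryocytes, read 300.2, 294 and 322 on the B6 Trib1 arrays and 516, 510.1 and 500.1 on the Ts1Cje Trib1 arrays, a ratio of 1.67 and a difference of 0.71 (SE 0.064, adjusted p = 2.88e-06). Runx1, a factor of blood development that is often mutated in AML, rose by 0.44, a ratio of 1.37 (adjusted p = 0.00039). Dyrk1a, a kinase, rose by 0.40, a ratio of 1.34 (adjusted p = 0.000553). Chaf1b, a histone chaperone subunit, reached a ratio of 1.61 (difference 0.64, adjusted p = 1.07e-06). Brwd1, a chromatin reader, reached 1.58 (difference 0.58, adjusted p = 8.23e-07), and Hmgn1, a nucleosome-binding protein, 1.16 (difference 0.21, adjusted p = 0.0035). Mrps6 reached 1.91 (difference 0.86, adjusted p = 3.09e-08). Fam3b, a secreted protein, rose (adjusted p = 3.42e-07) from 19.7, 22.6 and 25.9 to 67.6, 54.2 and 54.5, but its B6 Trib1 mean was not above the dim-signal limit, so the size of its rise is not given. Ifnar1 and Ifnar2, the chains of the type I interferon receptor, rose by 0.24 and 0.32 (adjusted p = 0.00382 and 2.31e-05), although a further probe set of Ifnar2 was called lower and the mean of its probe sets gave -0.06. Their neighbours Ifngr2 and Il10rb, receptor chains for interferon gamma and interleukin-10, were not called (adjusted p = 0.538 and 0.399). The gene that fell was Itsn1, an endocytic scaffold, by 0.27 (adjusted p = 0.00633), or by 0.10 and uncalled as the mean of its probe sets.

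**Figure D4:**
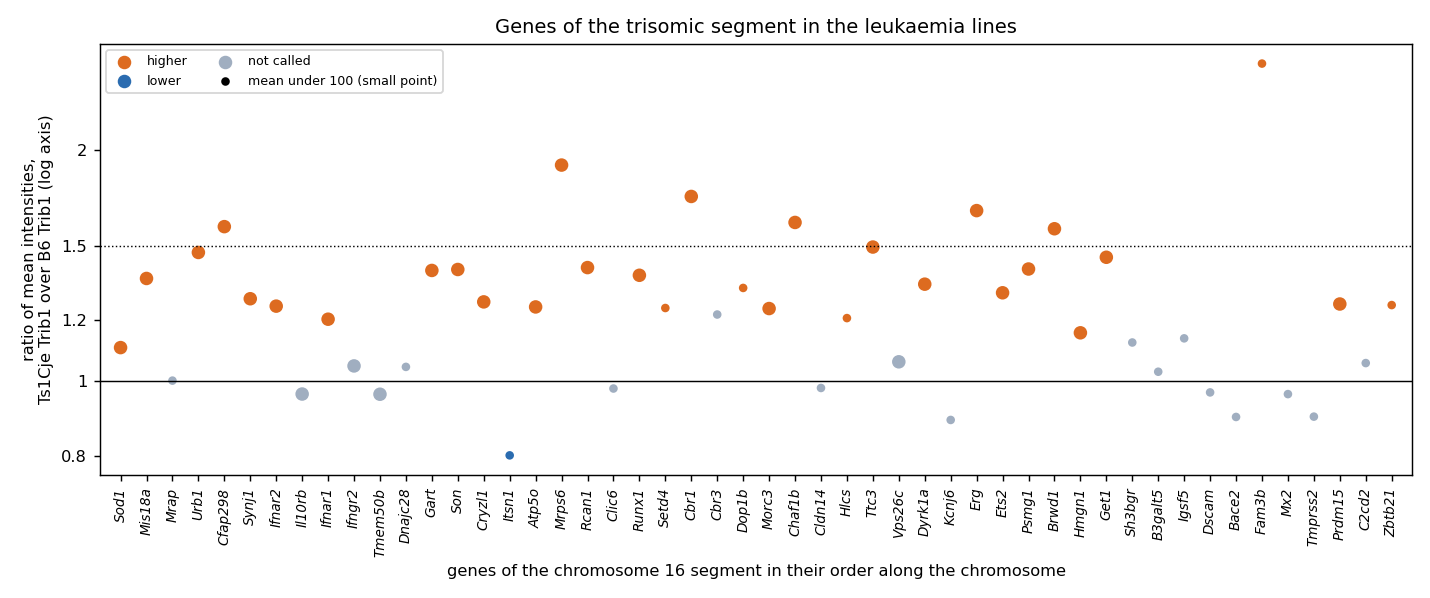
Ratio of mean intensity in the Ts1Cje Trib1 lines to that in the B6 Trib1 lines (log axis) for each of the 50 tested genes of the segment, in their order along chromosome 16 from Sod1 on, coloured by call, with small points for genes under a mean of 100 and lines at 1 and 1.5. The larger points sit mostly between 1 and 1.5 and above, and the small points scatter around 1 apart from Fam3b, the highest point, which was not above the dim-signal limit in B6 Trib1.

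On chromosome 16 before Sod1, outside the segment, 53 of 359 genes rose (14.8%). Of the other chromosomes, the share of higher genes ran from 8.64% to 15.3%, leaving out the Y chromosome with its 8 tested genes, against 20.9% for chromosome 16 as a whole. Of 5 tested genes at the end of chromosome 12, where the segment is joined, Dnah11, a dynein heavy chain, gave the largest difference of the whole comparison. It read 80.5, 73 and 81.8 on the B6 Trib1 arrays and 1352, 1407 and 1172 on the Ts1Cje Trib1 arrays, a difference of 3.82 (SE 0.065, adjusted p = 9.09e-13). Sp4 and Cdca7l, near it, fell by 0.33 and 0.17 (adjusted p = 0.0461 and 0.0161), and Twistnb and Rapgef5 were not called. The call for Sp4 was lost without B6 Trib1 replicate 3 or Ts1Cje Trib1 replicate 1 or 2, among other settings (-0.33 to -0.18), and that for Cdca7l without replicate 1 or 2 of either group (-0.16 to -0.15).

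Sex-linked genes also separated the groups, and the sex of the animals was not used here. Xist, the RNA that silences an X chromosome in female cells, read 784, 798 and 769.6 on the B6 Trib1 arrays and 2029.6, 1999.7 and 2182 on the Ts1Cje Trib1 arrays, a difference of 1.38 (SE 0.039, adjusted p = 4.9e-11), with 3 of its 3 probe sets higher. The Y-linked genes Eif2s3y and Kdm5d fell by 0.48 and 0.26 (adjusted p = 9.73e-05 and 0.0023), and Uty was not called at -0.03 (adjusted p = 0.892). Only 1 of the 3 probe sets of Kdm5d was called lower, and the highest of them stood at 0.04. All 4 genes were above the 40th percentile on all 6 line arrays, so both line groups held Xist and Y-linked signal. The part of the sex of the cells in the results was not tested. X-linked genes with large differences included Cybb, described above, and Hs6st2, a heparan sulfate sulfotransferase, at 0.98, and Xlr4b at 0.97 (adjusted p = 1.61e-08 and 1.34e-09).

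Other large rises came from genes of mixed function. Klk8, a serine protease, read 95.5, 96.3 and 97.2 on the B6 Trib1 arrays and 282, 289.6 and 265 on the Ts1Cje Trib1 arrays, a difference of 1.40 (SE 0.042, adjusted p = 9.66e-11). Ddah1, which breaks down methylated arginine, read 104, 104 and 104 on the B6 Trib1 arrays and 280.2, 276 and 285 on the Ts1Cje Trib1 arrays, a difference of 1.31 (SE 0.041, adjusted p = 1.22e-10). Tjp1, the tight junction scaffold ZO-1, read 440.5, 416 and 439 on the B6 Trib1 arrays and 900.5, 890.3 and 909 on the Ts1Cje Trib1 arrays, a difference of 1.03 (SE 0.067, adjusted p = 1.21e-07). All 3 had little spread within groups. Their lack of overlap was a condition of the choice, since the largest rises were taken only from called genes without overlap. Sucnr1, the succinate receptor, rose by 1.23, Inpp4b, a lipid phosphatase, by 1.00, and Pgr, the progesterone receptor, by 1.00 (adjusted p = 0.000118, 9.3e-06 and 1.02e-07).

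The same genotype comparison in the cells without Trib1 gave other directions for many of these genes. It shares no arrays with the comparison of the lines, and over all genes 23.3% were called higher and 29.3% lower in it. The difference between the genotype effect in the lines and that in the cells, tested as an interaction, was called positive in 3567 genes (28.4%) and negative in 2541 (20.2%). Of the 1209 genes lower in the lines, 639 were higher in Ts1Cje cells without Trib1 (52.9% of the former and 21.8% of the genes higher in the cells). Of the 1488 genes higher in the lines, 620 were lower in those cells (41.7% of the former and 16.9% of the genes lower in the cells). Genes called the same way in both numbered 304 higher and 247 lower.

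Secondary granule genes had a median genotype difference of 1.17 in the cells and -1.06 in the lines, and the interaction was negative in 21 of 22. Ltf went from 1608 ± 7.05 to 3812 ± 163 between B6 and Ts1Cje cells (difference 1.24), the opposite of the lines, with an interaction of -2.56 (SE 0.061, adjusted p = 5.23e-12). Monocyte and macrophage genes had a median of 0.60 in the cells, with a negative interaction in 25 of 28. C-type lectin and Fc receptor genes had one of 0.55, with a negative interaction in 18 of 20. Interferon response genes had a median of -0.05 in the cells and a positive interaction in 24 of 37. For the IRG and GBP genes it was -0.44, with a positive interaction in 10 of 11: Tgtp1 went from 1028 ± 5.97 to 417 ± 5.05 in the cells (difference -1.27), with an interaction of 2.00 (adjusted p = 3.73e-12). Fcer1a had a genotype difference of 2.14 in the cells and an interaction of -1.22 (adjusted p = 5.26e-08).

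Trisomic genes had medians of 0.29 in the lines and 0.23 in the cells. Of the 49 other than Sod1, 23 were higher in both, and 9 were higher in the cells but not called in the lines, all of them with a negative interaction. These 9, chosen after their values were seen, included Ifngr2, Il10rb and Dscam. Erg and Hmgn1 were lower in Ts1Cje cells and higher in Ts1Cje Trib1 lines: Erg went from 304 ± 4.14 to 238 ± 28.2 in the cells (difference -0.34, adjusted p = 0.000692), with an interaction of 1.05 (adjusted p = 9.67e-07). Itsn1 was higher in the cells, by 0.81, and lower in the lines.

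**Figure D5:**
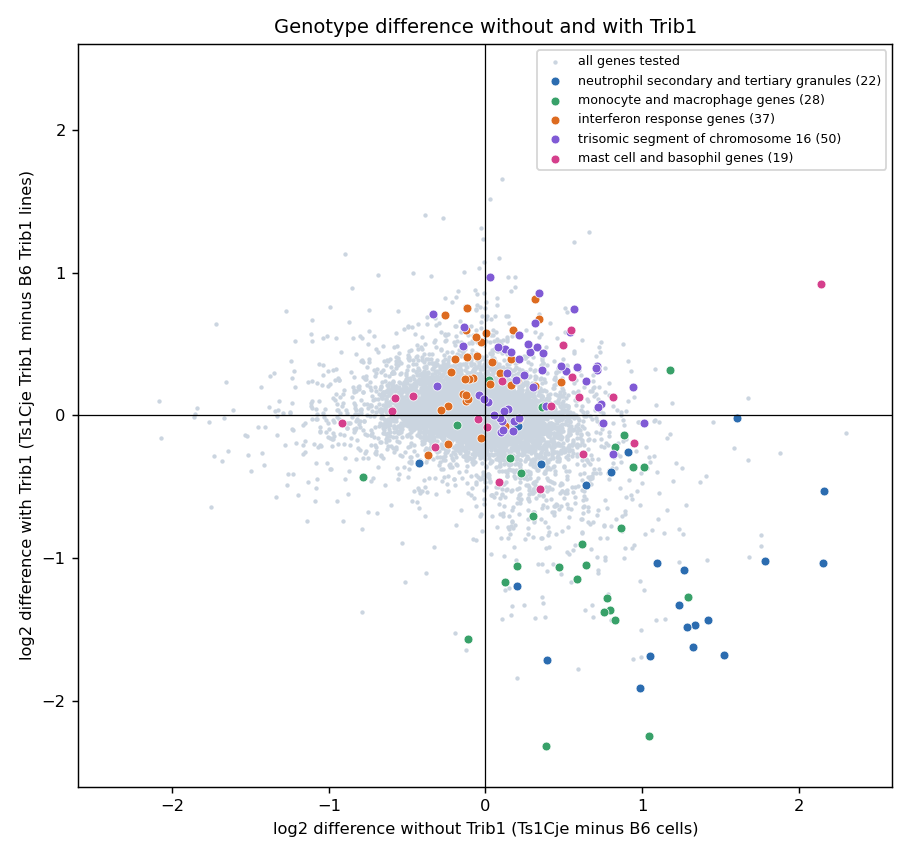
Each point is a gene, with the Ts1Cje minus B6 log2 difference in cells without Trib1 on the horizontal axis and the Ts1Cje Trib1 minus B6 Trib1 log2 difference in the lines on the vertical axis; 5 lists are coloured and Dnah11 lies beyond the axes. Secondary granule and monocyte genes lie mostly at the lower right, interferon genes mostly above 0 on the vertical axis, and trisomic genes mostly at the upper right.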

How the data were processed

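Each of the 12 samples was hybridised to a mouse Affymetrix array whose probe sets carry perfect-match probes alone. The authors deposited 1 table of linear intensities per probe set, made with MAS5 per the submitters' processing notes; how MAS5 was run without mismatch probes, its scaling and the genome build are not given in the sources used here. Samples were grouped by title.

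Here, control probe sets were left out and log2(intensity + 15) was taken with no further scaling. Probe sets above their array's 40th percentile on at least 3 of the 12 arrays and with 1 gene symbol were kept, and the brightest per gene was used. limma 3.58.1 (lmFit and eBayes, R 4.3.3) was fitted to all 12 arrays in 4 groups, so that all groups shared the estimate of spread, and p-values were adjusted by the Benjamini-Hochberg method over 12555 genes. The interaction subtracts the genotype difference without Trib1 from that with Trib1. The steps were tested on simulated data. The number of arrays limits the precision.

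The comparison and the gene lists were chosen with earlier results of these data known. Named genes were Trib1, the sex-linked, trisomic and distal chromosome 12 lists, and the 20 largest rises and 20 largest falls. Those rises and falls were taken only from called genes whose groups did not overlap, so their lack of overlap was fixed by the choice. Each list added its brightest member and the 6 or fewer members of lowest adjusted p. Others are marked as picked after their values were seen. Alternatives were quantile scaling, median centring, an offset of 1, a floor, no filter, a 60th percentile filter, averaging all probe sets of a gene, no cross-matching probe sets, eBayes with trend and robust settings, only the 6 line arrays, the replicate number as a block, and leaving out each array.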

Additional observations from a re-analysis of the deposited data

Results flagged for a closer look

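Among the 40 largest rises and falls, 23 genes were called in opposite directions in the lines and in cells without Trib1. Over all 12555 genes, 639 were higher in the cells and lower in the lines, and 620 the reverse. The interaction was called for these 23 too. It contains the line difference by which they were picked, so that call is no separate support. Among these were genes of granules, monocytes and eosinophils with negative interactions: Saa3 (-3.29), Olfm4 (-3.20), Fcnb (-2.94), Hp (-2.89), Cybb (-2.81), Wfdc21 (-2.77), Camp (-2.73), Tgfbi (-2.70), Epx (-2.68), Prg2 (-2.52), Elane (-2.37), Cd14 (-2.26), Clec5a (-2.23) and Mmp8 (-2.10). The others with a negative interaction were Sgms2 (-2.65), Igsf6, an immunoglobulin-family membrane protein (-2.50), and Tfec (-2.04). Positive interactions were found for Ptprg, a receptor phosphatase (1.33), Inpp4b (1.46), Xist (1.65), Hs6st2 (1.66), Klk8 (1.79) and Trgv1, a T-cell receptor gamma segment (2.02).

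Probe sets with no gene symbol entered no comparison above. In the fit over all kept probe sets, 932 of 8062 of them were called between the line groups (11.6%), against 17.4% of those with 1 symbol, and 509 were higher and 423 lower.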

How the results depend on the processing

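The count of genes higher by at least 1 on the log2 scale was 25 with an offset of 1 and 26 with a floor, against 14 with the offset of 15; the counts of genes called, higher and lower, stayed within 1.5 times under every alternative run. Leaving out each of the 12 arrays gave 1059 to 1675 higher and 997 to 1298 lower genes, quantile scaling 1409 and 1352, median centring 1499 and 1074, and the 6 line arrays alone 1330 and 1084. Replicate numbers did not pair the samples (correlations of deviations of -0.0266, -0.027 and -0.135), and the fit with the replicate number as a block called 1363 higher and 1121 lower. With the mean of its probe sets Ifnar2 reversed to -0.06, from 0.32. Of 188 genes looked up for the text, 167 kept their direction and their side of the threshold under every alternative run. Eif2ak2, Meis1, Ciita, Mx1 and Pf4, not called, passed the threshold under some of the other settings. The 6 line arrays alone give no interaction. Signal near background limits what dim genes can show.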

Other observations

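Some called genes lay beside each other. Windows of 12 neighbouring tested genes were scanned, and only the fullest window per chromosome and direction was kept. In 10 of those kept, at least 7 genes were called in 1 direction. Further windows on the same chromosomes were not counted, and how many would arise by chance was not tested. A window on chromosome 19 held 7 genes of the Ms4a family of membrane proteins that fell, such as Ms4a6d (-1.34, adjusted p = 3.74e-07) and Ms4a6c (-1.15, adjusted p = 2.89e-07), while Ms4a2, the IgE receptor chain in the same cluster, rose by 0.49. On chromosome 17, 8 class II genes and their neighbours fell, and Psmb9, which lies among them, rose by 0.23 (adjusted p = 0.00121). On chromosome 10 the window with Elane and Prtn3 held 7 genes that fell. On chromosome 13, 7 genes rose, including 4 serine protease inhibitors such as Serpinb9, an inhibitor of granzyme B (0.33, adjusted p = 0.00209). On chromosome 7, 7 genes rose, including Hbb-y and 5 genes of the Trim family such as Trim30a (0.22, adjusted p = 0.00727), though the call for 1 of these, Trim12a (0.20, adjusted p = 0.0493), was lost without any 1 of 9 arrays (0.16 to 0.21), 5 of them from the lines, and in other settings. On chromosome 6, 7 genes fell, including the lectins Clec4a2, Clec4n and Clec4d. The windows and the genes named in them were picked after their values were seen.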
